A study of Rattus norvegicus with 17 samples.

Results

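The genes described here make, hold and receive the TGF-beta signal in the rat kidney. They are the ligand genes Tgfb1, Tgfb2 and Tgfb3, the receptor genes Tgfbr1 and Tgfbr2, the latent TGF-beta binding protein genes Ltbp1, Ltbp2, Ltbp3 and Ltbp4, and the induced matrix gene Tgfbi. They were chosen by name, as the features whose gene name equals one of these symbols: 10 genes among 31195 features with 1 gene name and 126306 features in all. Across both comparisons 9 of the 10 symbols matched 1 feature. Tgfbr1 matched 2, of which the near-empty one was left aside. All 10 genes were tested by the authors in both comparisons.

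The 17 animals were male Sprague Dawley rats, an outbred strain whose left kidney was sequenced and for which the labels list no genetic change. In the 5/6Nx group (n = 6) the right kidney and the larger part of the left had been cut out, so that the rat lived on the sampled remnant. In the 1/3Nx group (n = 6) the same portion of the left kidney was taken out and the right one stayed. The sham group (n = 5) was operated on without loss of tissue. All rats arrived at 9 weeks of age, ate a 0.4% Dyets chow from then on, had surgery at 10 weeks and gave tissue 6 weeks later, and no drug was given. The labels name kidney tissue without a region of the remnant. Each surgery was set against the same sham rats, to ask how a remnant kidney differs from an uncut one with and without a second kidney.

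TGF-beta is secreted in a latent form. Its propeptide stays wrapped around the dimer, and this small complex is bound to a latent binding protein that anchors it to fibrillin microfibrils and fibronectin in the matrix. Once freed by integrins, proteases or thrombospondin, the dimer joins the type II receptor, which phosphorylates the type I receptor, which in turn phosphorylates Smad2 and Smad3. In the kidney the pathway is best known for driving matrix production in fibrosis, with Tgfb1 as its most studied ligand.

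The authors deposited 1 FPKM value per group for each gene, together with the log2 fold change (surgery over sham), the p-value and the q-value of their own test. FPKM counts fragments per kilobase of transcript and per M mapped fragments (M being the SI prefix mega), so levels of different genes can be set side by side. No value per rat is in these tables, so no SD or count of rats can be set beside a level or a fold change, and whether single rats overlapped was not analysed here. A gene is said to have risen or fallen only where the authors' q was under 0.05. In the authors' test of genes the highest p that met this was 0.029 in 5/6Nx and 0.0032 in 1/3Nx. A call is therefore a looser standard by p in 5/6Nx than in 1/3Nx. Libraries held 59 to 104 M reads in 5/6Nx, 59.7 to 83 M reads in 1/3Nx and 66.1 to 78.5 M reads in sham. Reads mapped at 62.6% to 90.5% in 5/6Nx, 87.1% to 90.1% in 1/3Nx and 84.8% to 89.6% in sham, and 2 of the 5/6Nx libraries lay below the other groups, at 62.6% and 77.2%. Their part in the 5/6Nx values was not tested.

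The tables of the surgeries differ in scale. The same sham rats were given values 2.01 times as high in the 1/3Nx table as in the 5/6Nx table (median of 10106 features), so levels are compared only within a table. Loci without a gene name made up 90.4% of all FPKM of the 5/6Nx column, against 4.37% of its sham column, and 3.93% of the 1/3Nx column, against 4.37% of its sham column. Among named genes with at least 1 FPKM in sham, the median log2 fold change was -0.20 in the 5/6Nx table (10068 genes) and -0.012 in the 1/3Nx table (11259 genes). The 5/6Nx log2 fold change of each of the 10 genes is therefore also given relative to that median. None of 10 tubule and 5 podocyte marker genes was listed at 0 in any group. The same held for the exocrine pancreas markers, so a value above 0 does not establish tissue identity.

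The starts of these genes were read from RefSeq (build GRCr8), in windows running from 250 bases before to 50 bases after a transcript start. All 10 genes had a window. Shown are the windows of Tgfb3 and Ltbp2, the genes with the 2 largest fold changes in both tables, and of Tgfbi, which had the lowest fold change in both. Each is written 5′ to 3′ on the strand of the gene. Capitals mark the Smad half-site CAGAC and the GC box GGGCGG on either strand (GTCTG and CCGCCC on the other one), which can share a base where they adjoin. The window of Tgfb3 lies at chr6:111456897-111457196 on the minus strand, that of Ltbp2 at chr6:110257249-110257548 on the minus strand, and that of Tgfbi at chr17:7990064-7990363 on the minus strand.
Tgfb3: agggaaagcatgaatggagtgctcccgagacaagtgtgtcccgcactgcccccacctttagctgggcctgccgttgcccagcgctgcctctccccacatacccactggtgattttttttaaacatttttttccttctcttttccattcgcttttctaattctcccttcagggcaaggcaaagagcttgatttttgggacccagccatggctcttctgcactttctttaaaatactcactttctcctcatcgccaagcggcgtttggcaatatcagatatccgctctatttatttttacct
Ltbp2: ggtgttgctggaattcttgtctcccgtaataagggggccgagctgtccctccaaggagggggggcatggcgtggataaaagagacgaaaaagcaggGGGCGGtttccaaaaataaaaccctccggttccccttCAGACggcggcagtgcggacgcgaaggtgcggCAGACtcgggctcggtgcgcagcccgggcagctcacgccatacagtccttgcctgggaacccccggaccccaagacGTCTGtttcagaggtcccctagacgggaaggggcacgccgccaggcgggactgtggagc
Tgfbi: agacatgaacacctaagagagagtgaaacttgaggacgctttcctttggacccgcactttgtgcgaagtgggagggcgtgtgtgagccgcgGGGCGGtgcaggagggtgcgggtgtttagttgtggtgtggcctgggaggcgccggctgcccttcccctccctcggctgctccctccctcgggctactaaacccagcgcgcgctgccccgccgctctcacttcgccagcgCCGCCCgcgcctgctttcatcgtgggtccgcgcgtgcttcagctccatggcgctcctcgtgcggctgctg
The window of Tgfb3 held no match to either motif and was 47.7% G and C, the lowest share of the 10 genes, against 74.7% in Tgfbr1, the highest. The window of Ltbp2 held 3 half-sites, starting at 117, 85 and 9 bases before the transcript start, and 1 GC box. That of Tgfbi held 2 GC boxes and no half-site.

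Across the 10 windows the half-site CAGAC was found in 2 genes, Ltbp1 and Ltbp2, and in 50.1% of all 33469 rat windows. The GC box was found in 6 genes (Tgfbr1, Tgfbr2, Ltbp2, Ltbp3, Ltbp4 and Tgfbi) and in 33.1% of all windows. None of the 3 ligand genes had either motif. The cyclic AMP response element TGACGTCA was found in Ltbp1, among 1.83% of all windows. The AP-1 site TGANTCA (7.33% of all windows) and the Smad palindrome GTCTAGAC (0.197%) were found in none of the 10. All of these were searched on both strands, and the last 3 read the same on both. A match describes letters in this window only.

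Ligand genes come first. Tgfb1, which encodes the main ligand of the kidney, was the highest of the 3 in every group. In the comparison of 1/3Nx with sham, 2 of the 3 ligand genes rose, and in that of 5/6Nx with sham none passed, although all 3 had higher values. Tgfb1 had 18.6 FPKM in 1/3Nx, against 10.0 FPKM in sham, a log2 fold change of 0.89 that passed (q = 0.00833) by the authors' deposited table. Tgfb1 had 9.70 FPKM in 5/6Nx, against 5.01 FPKM in sham, a nearly equal log2 fold change of 0.95 (1.15 relative to the median) that missed the threshold (q = 0.598) by the authors' deposited table. The table lists this gene at 82480194 to 82497199 on chromosome 1. A bulk sample cannot tell fewer cells of a type from less RNA per cell, for this and every later value.

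Tgfb3 had the larger fold change among the ligands. It encodes the isoform best known from palate and wound repair. Its level was 4.56 FPKM in 1/3Nx, against 1.03 FPKM in sham, a log2 fold change of 2.15. Tgfb3 passed there (q = 0.00183) by the authors' deposited table. That is the lowest q of that table, at its lowest p of 5e-05, and many genes share it, Ltbp2 and Ltbp4 among them. Tgfb3 had 2.23 FPKM in 5/6Nx, against 0.513 FPKM in sham, with a log2 fold change of 2.12 (2.31 relative to the median) that missed the threshold (p = 0.0524, q = 0.0885) by the authors' deposited table. The table lists Tgfb3 at 109913756 to 109936368 on chromosome 6.

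Tgfb2, which encodes the ligand that needs a co-receptor for strong binding to its type II receptor, had higher values and passed in neither table. It had 2.67 FPKM in 1/3Nx, against 1.22 FPKM in sham (log2 fold change 1.13, p = 0.0046, q = 0.0646), by the authors' deposited table. With q recomputed over named genes alone the value for Tgfb2 was 0.0496, just past the threshold. Tgfb2 had 1.55 FPKM in 5/6Nx, against 0.604 FPKM in sham (log2 fold change 1.36, or 1.55 relative to the median, q = 0.288), by the authors' deposited table. It is listed at 105039852 to 105144556 on chromosome 13.

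The make-up of the ligand pool differed alike in both tables. By summed FPKM of the 3 ligands, Tgfb1 made up 72.0% in 5/6Nx, against 81.8% in sham, and 72.0% in 1/3Nx, against 81.7% in sham. Tgfb3 made up 16.5% in 5/6Nx, against 8.37% in sham, and 17.7% in 1/3Nx, against 8.40% in sham. Tgfb2 kept a like share in each group, at 11.5% in 5/6Nx, against 9.86% in sham, and 10.3% in 1/3Nx, against 9.91% in sham. In sham Tgfb2 stood above Tgfb3, and in both surgery groups Tgfb3 stood above Tgfb2. These shares do not depend on the scale of a table, and they share the sham rats and were not tested.

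**Figure D1:**
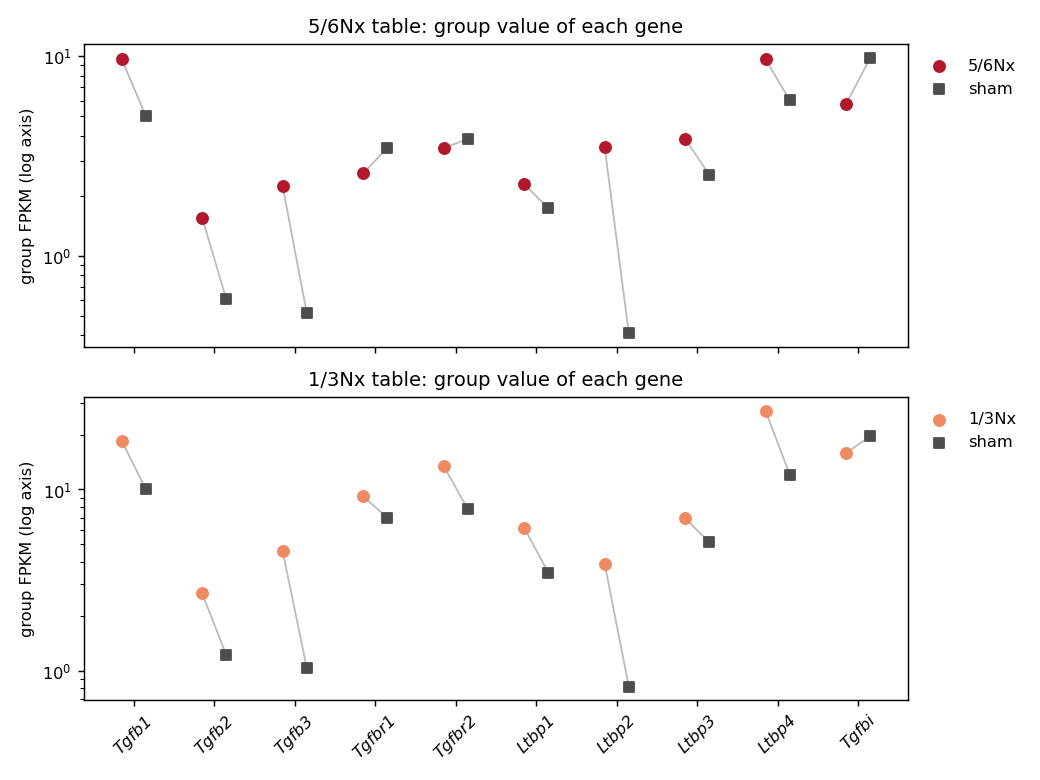
Group FPKM of each gene on a log axis, in the 5/6Nx table (top) and the 1/3Nx table (bottom), with the surgery group as a circle left of sham as a square; each point is the authors' 1 value per group, with no error. The widest gaps are those of Ltbp2 (log2 fold changes of 3.10 and 2.25) and Tgfb3, while Tgfbi is lower after both surgeries.

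Neither receptor gene passed in either table. Tgfbr2 encodes the type II receptor that binds the ligand first, and Tgfbr1 the type I receptor kinase. Tgfbr2 had 13.5 FPKM in 1/3Nx, against 7.79 FPKM in sham (log2 fold change 0.79, p = 0.00855, q = 0.0986), by the authors' deposited table. Tgfbr2 had 3.46 FPKM in 5/6Nx, against 3.85 FPKM in sham (log2 fold change -0.15, q = 0.919), by the authors' deposited table, a sign that turns to 0.041 when taken relative to the median of that table. The table lists it at 124312753 to 124399494 on chromosome 8.

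Tgfbr1 had 9.15 FPKM in 1/3Nx, against 6.99 FPKM in sham (log2 fold change 0.39, q = 0.357), by the authors' deposited table. Tgfbr1 had 2.59 FPKM in 5/6Nx, against 3.47 FPKM in sham (log2 fold change -0.43, or -0.23 relative to the median, q = 0.844), by the authors' deposited table. So the deposited values of both receptor genes were above sham in 1/3Nx and below it in 5/6Nx. The difference of log2 fold changes, 5/6Nx minus 1/3Nx, was -0.81 for Tgfbr1 and -0.95 for Tgfbr2, and -0.63 and -0.76 with each table centred on its median; it was not tested. Tgfbr1 is listed at 63050757 to 63123332 on chromosome 5. Its span is 72576 bp, against 57024 bp for the RefSeq gene, so its value may hold reads from beyond the gene. By the authors' apportioning, the annotated transcript ENSRNOT00000009452 held 99.8% of the gene in 5/6Nx and 99.7% in 1/3Nx, against 99.7% in sham in both.

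The ratio of the ligand pool to the receptor pool was higher after both surgeries. Summed over genes, ligands stood at 13.5 FPKM and receptors at 6.05 FPKM in 5/6Nx, against 6.13 and 7.33 FPKM in sham. The ligand sum over the receptor sum was 2.23 in 5/6Nx, against 0.836 in sham. In the other table ligands stood at 25.8 FPKM and receptors at 22.6 FPKM in 1/3Nx, against 12.3 and 14.8 FPKM in sham, a ratio of 1.14 in 1/3Nx, against 0.830 in sham. This ratio is free of the scale of a table. It describes group values and has no error.

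Latent binding protein genes held most of the calls. In 1/3Nx 3 of the 4 genes rose, Ltbp1, Ltbp2 and Ltbp4, and in 5/6Nx 1 rose, Ltbp2. Ltbp2, which unlike its relatives does not bind the latent ligand but sits on microfibrils, was the gene called in both tables. It had 3.89 FPKM in 1/3Nx, against 0.816 FPKM in sham (log2 fold change 2.25, q = 0.00183), by the authors' deposited table. Ltbp2 had 3.50 FPKM in 5/6Nx, against 0.408 FPKM in sham (log2 fold change 3.10, or 3.29 relative to the median, p = 0.00555, q = 0.00975), by the authors' deposited table. That call in 5/6Nx was lost when q was recomputed over named genes (q = 0.116). Ltbp2 was the lowest of the 10 genes in sham in both tables, and stood at rank 5 from the top in 5/6Nx and rank 9 in 1/3Nx.

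Ltbp2 took a larger part of the summed FPKM of the 4 binders after both surgeries. Its share was 18.1% in 5/6Nx, against 3.82% in sham, and 8.82% in 1/3Nx, against 3.81% in sham. It is listed at 108500111 to 108596569 on chromosome 6.

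Ltbp4, which fixes latent Tgfb1 and guides elastic fibre assembly, was the highest of the binders in every group. It had 27.1 FPKM in 1/3Nx, against 12.1 FPKM in sham (log2 fold change 1.17, q = 0.00183), by the authors' deposited table. Ltbp4 had 9.64 FPKM in 5/6Nx, against 6.02 FPKM in sham (log2 fold change 0.68, or 0.88 relative to the median, q = 0.616), by the authors' deposited table. It held 61.5% of the binder sum in 1/3Nx, against 56.2% in sham, and 50.0% in 5/6Nx, against 56.2% in sham, so its share was on opposite sides of sham. The table lists it at 84118045 to 84150084 on chromosome 1.

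Ltbp1, the binder first found with latent Tgfb1, had 6.15 FPKM in 1/3Nx, against 3.47 FPKM in sham (log2 fold change 0.82, q = 0.0124), by the authors' deposited table. Ltbp1 had 2.28 FPKM in 5/6Nx, against 1.73 FPKM in sham (log2 fold change 0.40, or 0.60 relative to the median, q = 0.791), by the authors' deposited table. It is listed at 21203477 to 21600451 on chromosome 6. Ltbp3, a binder known from bone and tooth growth, passed in neither table. It had 6.93 FPKM in 1/3Nx, against 5.11 FPKM in sham (log2 fold change 0.44, q = 0.739), by the authors' deposited table. Ltbp3 had 3.86 FPKM in 5/6Nx, against 2.55 FPKM in sham (log2 fold change 0.60, or 0.79 relative to the median, q = 0.550), by the authors' deposited table. The Ltbp3 feature runs from 221099997 to 221129645 on chromosome 1, 29649 bp against 16941 bp for the RefSeq gene, so its value may hold reads of neighbouring genes.

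Tgfbi encodes a secreted matrix protein named for its induction by the ligand, and it was the only one of the 10 genes below sham in both tables, also relative to the median. It had 15.9 FPKM in 1/3Nx, against 19.7 FPKM in sham (log2 fold change -0.31, q = 0.498), by the authors' deposited table. Tgfbi had 5.76 FPKM in 5/6Nx, against 9.84 FPKM in sham (log2 fold change -0.77, or -0.58 relative to the median, q = 0.699), by the authors' deposited table. Neither value passed. It was the highest of the 10 genes in sham and stood at rank 3 in both surgery groups, and is listed at 8400145 to 8429338 on chromosome 17.

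Taking the 10 genes as a list, 5 rose, 0 fell and 5 did not pass in 1/3Nx, where 8.33% of 13326 tested named genes passed and 5.70% rose. In 5/6Nx 1 rose, 0 fell and 9 did not pass, where 8.10% of 14452 tested named genes passed and 8.01% rose. Among named genes with at least 1 FPKM in sham, 4.19% rose in 1/3Nx and 1.60% in 5/6Nx. Over all tested features, most without a gene name, 58.0% passed in 5/6Nx and 6.40% in 1/3Nx. With q recomputed over named genes, 6 of the 10 genes passed in 1/3Nx (9.31% of named genes) and 0 in 5/6Nx (4.09%). At an unadjusted p under 0.05 the counts were 7 in 1/3Nx (21.3% of named genes) and 1 in 5/6Nx (10.5%). No gene with a value below sham had an unadjusted p under 0.05 in either table. Values were above sham for 9 of 10 genes in 1/3Nx and for 7 of 10 in 5/6Nx. The median log2 fold change of the 10 genes was 0.86 in 1/3Nx and 0.64 in 5/6Nx. Over all named genes with at least 1 FPKM in sham it was -0.012 and -0.20. The sets are unlike, since the 10 genes were not held to that minimum. Tgfb2, Tgfb3 and Ltbp2, with the largest fold changes in 5/6Nx, lay under it in sham there, as did Ltbp2 in the 1/3Nx table. The 2 comparisons share the sham rats, so their likeness is not independent.

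**Figure D2:**
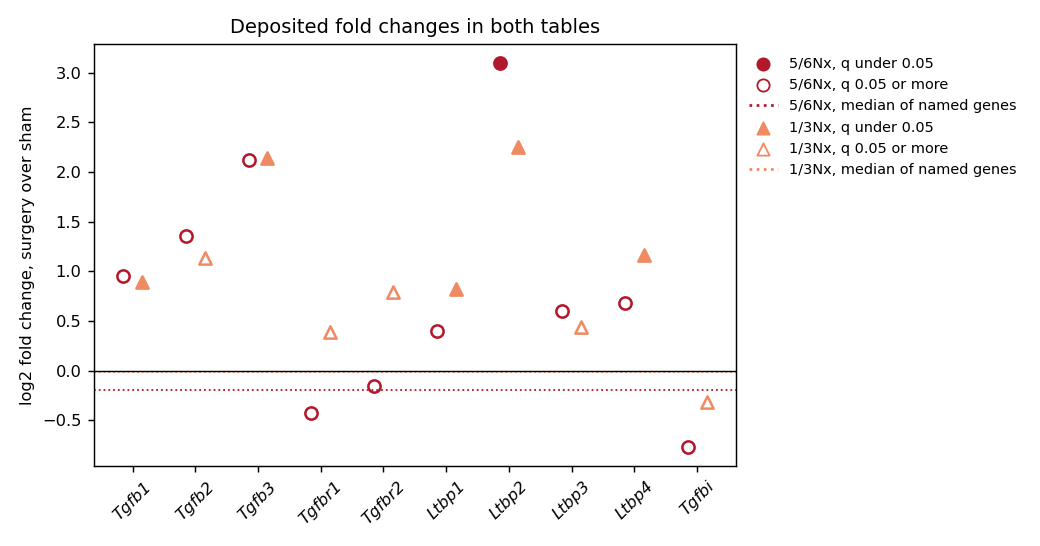
Deposited log2 fold change of surgery over sham for each gene in 5/6Nx (circles) and 1/3Nx (triangles), filled where q was under 0.05; dotted lines are the medians of named genes (-0.20 and -0.012) and the solid line is 0. Of the triangles 5 are filled and of the circles only that of Ltbp2, while Tgfb1 and Tgfb3 have nearly equal values in both tables.

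Similar fold changes came with unlike test statistics. For Tgfb1 the deposited statistic was 0.337 in 5/6Nx and 1.59 in 1/3Nx, and for Tgfb3 it was 0.575 and 2.60, at nearly the same log2 fold changes. Over the 10 genes, a statistic of 1 corresponded to a median log2 fold change of 3.25 (range 2.44 to 4.71) in 5/6Nx and 0.658 (range 0.490 to 1.10) in 1/3Nx. The medians over named genes with at least 1 FPKM in sham were 3.29 in 5/6Nx and 0.612 in 1/3Nx, so the 10 genes were near all others in this respect. A gene past the threshold in 1/3Nx and not in 5/6Nx is therefore not shown to differ between the surgeries. No deposited table sets the surgeries against each other.

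**Figure D3:**
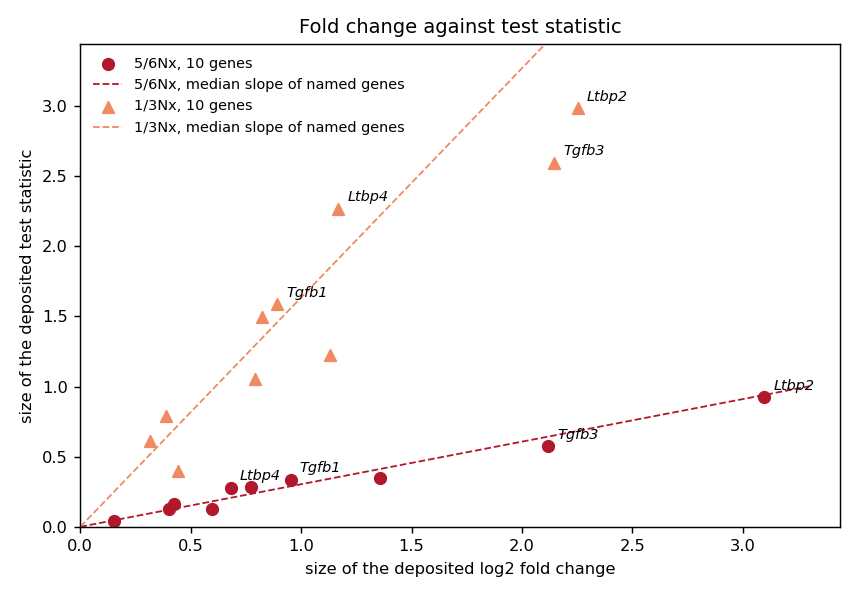
Size of the deposited log2 fold change (x axis) against the size of the deposited test statistic (y axis) for the 10 genes in 5/6Nx (circles) and 1/3Nx (triangles); dashed lines give the median relation over named genes, a log2 fold change of 3.29 and 0.612 per unit of statistic. Ltbp2 reaches a statistic of 0.927 in 5/6Nx and 2.98 in 1/3Nx.

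Set side by side, the 10 genes differed in both directions between the surgeries. The log2 fold change in 5/6Nx minus that in 1/3Nx was 0.060 for Tgfb1, 0.23 for Tgfb2 and -0.028 for Tgfb3, and 0.24, 0.41 and 0.16 for these genes with each table centred on its median, where the sign for Tgfb3 flips. Among binders it was 0.85 for Ltbp2 and 0.16 for Ltbp3, and -0.42 for Ltbp1 and -0.49 for Ltbp4. Centred, these were 1.03 for Ltbp2, 0.34 for Ltbp3, -0.24 for Ltbp1 and -0.30 for Ltbp4. For Tgfbi it was -0.46, or -0.27 centred. The median over the 10 genes was -0.23, and -0.042 after centring. None of these differences was tested.

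The deposited isoform tables split these genes into 26 transcripts, 15 with an annotated name and 11 assembled without one. Tgfb1, Tgfbr2 and Tgfbi have 1 transcript each. In 1/3Nx 3 of 19 tested transcripts rose and 0 fell, where 1.72% of 39970 tested transcripts passed, or 3.13% of those with 1 gene name. At an unadjusted p under 0.05 there were 7, among them assembled transcripts of Ltbp1 and Ltbp2. Of transcripts with 1 gene name 12.5% had one, a share that leaves such assembled transcripts out. In 5/6Nx 0 of 15 passed, where 49.6% of 120662 tested transcripts passed (5.22% of those with 1 gene name), and 0 had an unadjusted p under 0.05 (7.67% of those with 1 gene name). The 3 that rose were the single transcript of Tgfb1 (q = 0.0222), ENSRNOT00000003313 of Tgfb2 and ENSRNOT00000081796 of Ltbp4, per the authors' deposited table.

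For Tgfb2 the transcript passed although the gene did not. ENSRNOT00000003313 had 2.17 FPKM in 1/3Nx, against 0.958 FPKM in sham (log2 fold change 1.18, q = 0.0191), by the authors' deposited table. It made up 81.3% of the gene in 1/3Nx, against 78.8% in sham, and 95.8% in 5/6Nx, against 78.9% in sham. ENSRNOT00000081796 of Ltbp4 had 22.6 FPKM in 1/3Nx, against 8.89 FPKM in sham (log2 fold change 1.34, q = 0.0049), by the authors' deposited table. The other main Ltbp4 transcript, ENSRNOT00000028322, had 4.50 FPKM in 1/3Nx, against 3.03 FPKM in sham (log2 fold change 0.57), and missed the threshold by the authors' deposited table. So the rise of the Ltbp4 gene value lay mostly in 1 of its transcripts, which took 83.3% of the gene in 1/3Nx, against 73.7% in sham, and 71.1% in 5/6Nx, against 73.7% in sham.

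No transcript of Tgfb3, Ltbp1 or Ltbp2 passed on its own in 1/3Nx, although each of these genes rose. The annotated transcript of Tgfb3, ENSRNOT00000013516, made up 49.4% of the gene in 1/3Nx, against 70.9% in sham, and 71.7% in 5/6Nx, against 71.1% in sham. For Ltbp2 the largest part was an assembled transcript without a name, at 49.3% in 1/3Nx, against 77.8% in sham, and 72.4% in 5/6Nx, against 78.0% in sham. For Ltbp1 nearly all of the value, 86.7% in 1/3Nx, against 94.3% in sham, was likewise in an assembled transcript, with 89.8% in 5/6Nx, against 94.4% in sham. These shares are the authors' apportioning of reads among overlapping transcripts and carry no error.

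**Figure D4:**
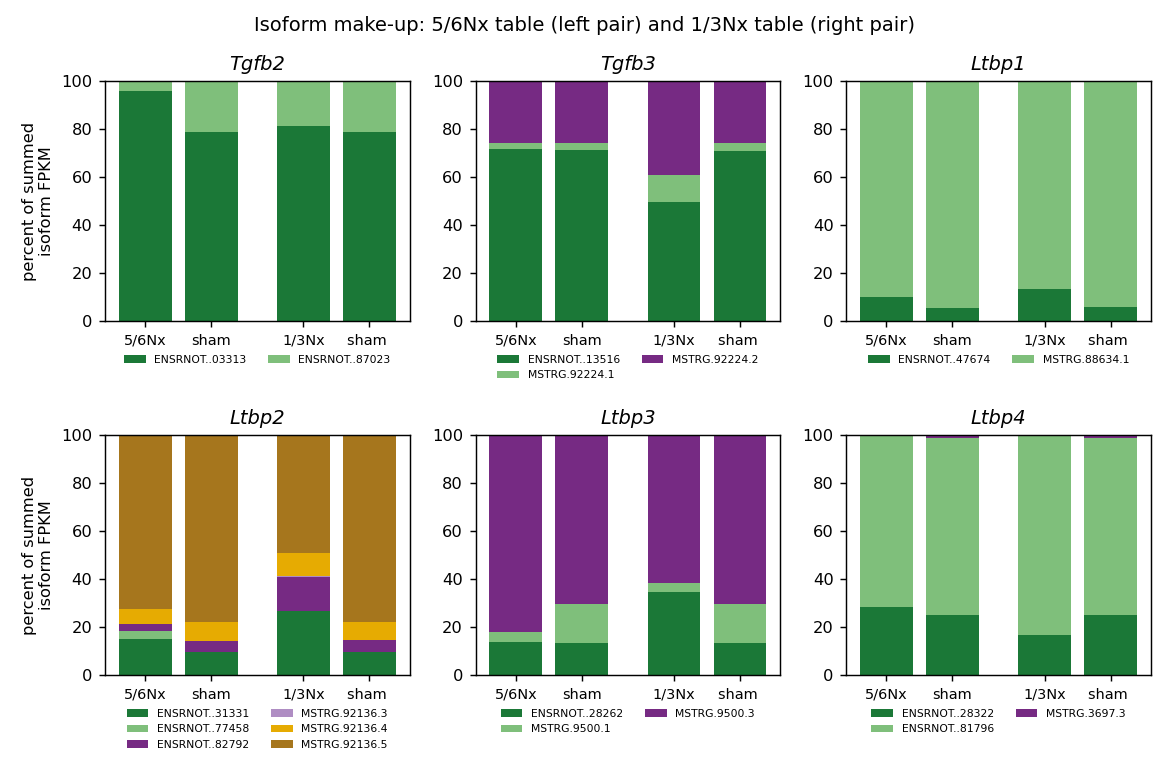
Share of each transcript in the summed isoform FPKM of its gene, in percent, for the 6 genes with several transcripts above trace level; in each panel the left pair of bars is 5/6Nx and sham and the right pair 1/3Nx and sham. In 1/3Nx the assembled main transcript of Ltbp2 has 49.3%, against 77.8% in sham, and the main transcript of Ltbp4 has 83.3%, against 73.7% in sham.

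Other genes of the pathway were taken as 7 lists, named in the processing notes. In 1/3Nx 21 of 86 tested genes rose and 0 fell. In 5/6Nx 6 of 91 rose and 0 fell, and with q recomputed over named genes none of the 6 passed. Percentages of named genes that passed are those given above. Of all tested named genes 5.70% rose in 1/3Nx and 8.01% in 5/6Nx, so 6 of 91 in 5/6Nx was not above that share. Among those with at least 1 FPKM in sham, 4.19% rose in 1/3Nx and 1.60% in 5/6Nx. The lists were not held to that minimum, so neither share is a like comparison for them. All but 1 of the rises in 1/3Nx, and all of those in 5/6Nx, lay among genes that hold, release or bind the ligand outside the cell or are known to respond to it. The other one lay among the Smad regulators, and none among the receptors. Lists of genes that hold, release, bind or respond to the ligand also held most of the tested genes in both tables.

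The scaffold list holds fibrillins, fibronectin and elastic fibre genes to which the latent binding proteins attach. In 1/3Nx 4 of 7 tested genes rose, with a list median of 1.66. They were Fbn1, the main fibrillin (log2 fold change 1.66), Fn1 or fibronectin (1.90), Eln or elastin (1.87) and the microfibril gene Mfap5 (2.34), by the authors' deposited table. In 5/6Nx 2 of 8 rose, with a list median of 1.51, namely Eln (2.48, q = 0.00966) and Mfap5 (3.36, q = 0.0236), by the authors' deposited table. Recomputed over named genes, these were at q = 0.115 for Eln and 0.217 for Mfap5. The values of Fbn1 in 5/6Nx were 1.54 FPKM, against 0.564 FPKM in sham, and missed the threshold (q = 0.357) by the authors' deposited table.

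Activation and release genes include the integrins, proteases and thrombospondin that free the ligand. In 1/3Nx 5 of 16 tested genes rose, with a list median of 0.31. They were Thbs1 or thrombospondin (1.15), the integrin chain Itgb1 (0.77), the metalloproteinases Mmp2 (2.13) and Mmp14 (1.19), and the procollagen proteinase Bmp1 (0.91), as log2 fold changes by the authors' deposited table. In 5/6Nx 0 of 17 passed, also at an unadjusted p under 0.05 (0 genes), with a list median of 0.0046, and Mmp2 had 6.57 FPKM in 5/6Nx, against 1.62 FPKM in sham (q = 0.248), by the authors' deposited table. The integrin chain Itgb6, a known activator in epithelium, had 16.9 FPKM in 1/3Nx, against 14.6 FPKM in sham (q = 0.699), by the authors' deposited table.

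Among the other receptors and co-receptors 0 of 11 passed in either table (at an unadjusted p under 0.05, 3 in 1/3Nx and 0 in 5/6Nx), with medians of 0.30 in 1/3Nx and -0.61 in 5/6Nx (-0.42 relative to the median). The Smads and their regulators had 1 rise among 19 in 1/3Nx and 0 among 20 in 5/6Nx, where 1 had an unadjusted p under 0.05. The 1 that rose was Tgif1, a co-repressor of Smad2, with 19.1 FPKM in 1/3Nx, against 8.09 FPKM in sham (log2 fold change 1.24, q = 0.00183), by the authors' deposited table. Smad2, Smad3 and Smad7, the receptor-activated pair and the inhibitor, had log2 fold changes of 0.49, 0.15 and -0.30 in 1/3Nx and passed in neither, by the authors' deposited table of each surgery.

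Genes known to respond to the ligand rose in 8 of 19 cases in 1/3Nx (list median 1.35) and in 4 of 20 in 5/6Nx (list median 2.17). In 1/3Nx these included the collagen gene Col1a1 (log2 fold change 2.32), the smooth muscle actin gene Acta2 (1.63) and Postn or periostin (5.32), by the authors' deposited table. In 5/6Nx they were Postn (3.58), Tnc or tenascin C (3.66), the cell cycle inhibitor Cdkn1a (3.25) and Timp1 (2.28), by the authors' deposited table. Postn and Tnc were low there, at 0.745 and 1.48 FPKM in 5/6Nx, against 0.0624 and 0.117 FPKM in sham. Values of the list were above sham for 17 of 19 genes in 1/3Nx and 18 of 20 in 5/6Nx. Extracellular binders and antagonists rose in 3 of 10 cases in 1/3Nx, the proteoglycan genes Dcn (1.77) and Bgn (1.17), whose products bind the free ligand, and Fstl1 (1.06), by the authors' deposited table. In 5/6Nx 0 of 9 of them passed, and 0 had an unadjusted p under 0.05. The related ligands had no gene past the threshold, of 4 tested in 1/3Nx (1 with an unadjusted p under 0.05) and 6 in 5/6Nx (0).

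**Figure D5:**
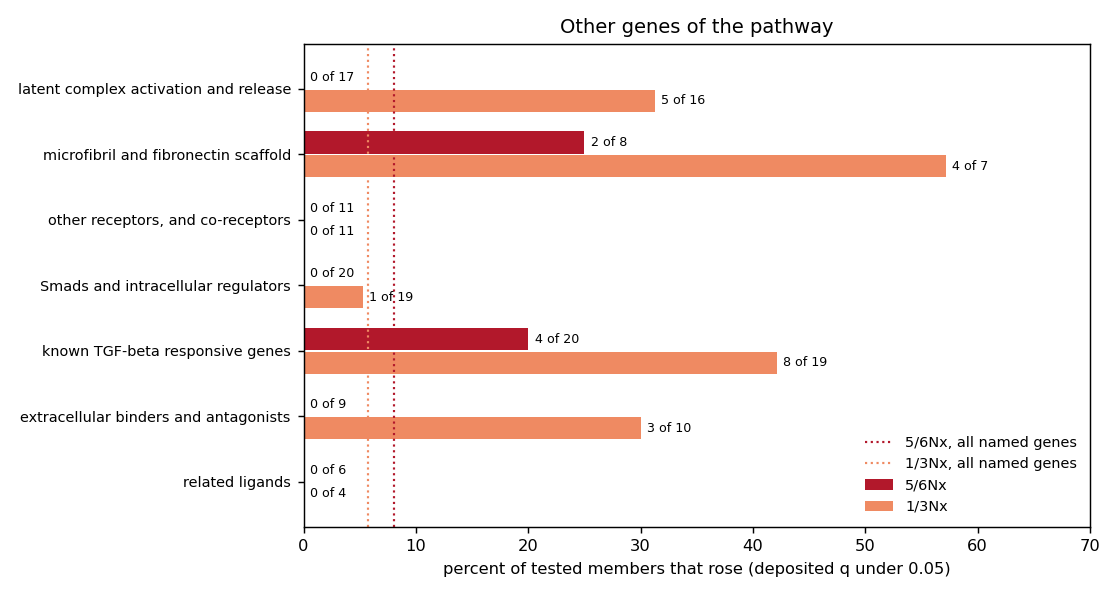
Percent of tested genes of each pathway list that rose (q under 0.05), for 5/6Nx (upper bar) and 1/3Nx (lower bar), with the counts beside the bars; dotted lines are the percent of all tested named genes that rose, 8.01 in 5/6Nx and 5.70 in 1/3Nx. The scaffold list has the longest bars, at 2 of 8 and 4 of 7, and the other receptors and related ligands have none.

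Markers of several cell types also had higher group values after surgery, and group values cannot show whether they varied together with the 10 genes. Of all tested named genes, 5.70% rose in 1/3Nx and 8.01% in 5/6Nx, where 10.5% had an unadjusted p under 0.05. Fibroblast markers rose in 5 of 5 cases in 1/3Nx, with a summed level of 217 FPKM in 1/3Nx, against 59.7 FPKM in sham. In 5/6Nx 0 of 5 passed (1 at an unadjusted p under 0.05), all 5 were higher, and the sum was 77.3 FPKM in 5/6Nx, against 29.8 FPKM in sham. Mural and smooth muscle markers rose in 6 of 6 cases in 1/3Nx (146 FPKM in 1/3Nx, against 52.2 FPKM in sham), and 0 of 6 passed in 5/6Nx (84.3 FPKM in 5/6Nx, against 26.1 FPKM in sham). Macrophage and monocyte markers rose in 7 of 9 cases in 1/3Nx (812 FPKM in 1/3Nx, against 315 FPKM in sham), and 0 of 9 passed in 5/6Nx (375 FPKM in 5/6Nx, against 157 FPKM in sham). In the 2 last-named lists 0 markers of 5/6Nx had an unadjusted p under 0.05. Lymphocyte markers rose in 4 of 8 cases in 1/3Nx and 0 of 7 in 5/6Nx, and endothelial markers in 1 of 5 in 1/3Nx and 0 of 5 in 5/6Nx. Of 3 tested platelet markers 1 fell in 1/3Nx, Itga2b, and 1 rose in 5/6Nx, Gp9. Acta2, Col1a1 and Dcn stand both among these markers and in the pathway lists.

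Markers of kidney cells had lower sums. Of all tested named genes, 2.63% fell in 1/3Nx and 0.09% in 5/6Nx, and the percentages that rose are those given above. Tubule markers summed to 4406 FPKM in 1/3Nx, against 5826 FPKM in sham (1 of 10 fell), and to 1987 FPKM in 5/6Nx, against 2906 FPKM in sham (0 of 10 passed). Podocyte markers summed to 81.2 FPKM in 1/3Nx, against 121.6 FPKM in sham (1 of 5 fell), and to 31.4 FPKM in 5/6Nx, against 60.6 FPKM in sham (0 of 5 passed). Genes of the exocrine pancreas summed to 412 FPKM in 1/3Nx, against 0.768 FPKM in sham (4 of 4 rose), and to 260 FPKM in 5/6Nx, against 0.383 FPKM in sham (2 of 4 rose). Markers of fat rose in 1 of 3 tested cases in each table, those of skeletal muscle in 3 of 3 in 1/3Nx and 0 of 2 in 5/6Nx, and those of urothelium in 4 of 4 in 1/3Nx and 0 of 4 in 5/6Nx. None of the fibroblast, mural or macrophage markers was listed at 0 in any group. The part of these cell types and tissues in the values of the 10 genes was not tested.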

How the data were processed

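Left kidneys of 17 rats were sequenced. Per the labels' protocols, RNA was extracted with Trizol and libraries were made with a stranded total RNA kit; those protocols also use the term small RNA, and which holds is unsettled. TopHat2 2.1.1, Cufflinks 2.2.1, StringTie, cutadapt, FastQC and build rn5 are listed in the submitters' processing notes, without roles. Per the file headers, the authors deposited 2 tables per surgery, of genes and of isoforms, with group values in FPKM, the log2 fold change, a test statistic (score), a p-value and a q-value, in the layout of Cuffdiff. A deposited sequencing summary gives the count of reads, the percent of high-quality bases and the percent mapped per library, as the authors recorded them. Coordinates of the deposited tables are printed as given, since sequence names later than rn5 occur in them.

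Python 3.11.15 was used, and matplotlib 3.10.9 for figures. The 628 features with several names were kept out of named genes and lists. The planned fit on single libraries could not be made from group values, so the authors' p and q were used (threshold 0.05), as the plan provided for that case. Deposited q-values were recomputed by the Benjamini-Hochberg method and differed by at most 5.28e-07 from those deposited; the recomputation was tested on simulated data. Labels describe separate rats. The alternatives were other sets of features for q, thresholds, pseudocounts of 1 and 0.1, centring, isoform sums and repeated symbols. The 10 genes and all lists were chosen with earlier results of these data known. The rule for naming allowed the 10 genes and their transcripts with a mean of at least 1 FPKM. It also allowed up to 4 genes per pathway list and table by smallest p, if 1 group reached 1 FPKM. Only part of what the rule allowed was named. Some of the genes left unnamed had values below sham, and no gene of the lists of other receptors and related ligands was named. Acta2, Bmp1, Gp9, Itga2b, Itgb6, Smad3, Smad7 and, in 5/6Nx, Fbn1 and Postn, were named outside that rule, after their values were seen, and a gene that the rule would name is not reported here. The pathway lists are latent complex activation, the microfibril and fibronectin scaffold, other receptors, Smads and regulators, responsive genes, extracellular binders, and related ligands. Promoter windows came from RefSeq, build GRCr8.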

Additional observations from a re-analysis of the deposited data

Results flagged for a closer look

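A library stood apart from its group in depth. Replicate 5 of 5/6Nx held 104 M reads (M, the SI prefix mega), with a gap to the next library larger than Dixon's critical value allows for a group of 6. Chance gives such a gap in about 1 of 20 groups. The same library mapped at 77.2%. Its part in the 5/6Nx values of the 10 genes was not tested, since the tables hold group values.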

How the results depend on the processing

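The 1 call among the 10 genes in 5/6Nx, Ltbp2, was lost with q recomputed over named genes (0 of 10), over named genes with at least 1 FPKM in sham (0; Ltbp2 lies under that minimum) and in the isoform table (0), and it held at q under 0.01. In 1/3Nx the count of 5 lay between 4 and 7 under other thresholds and sets of features, and was 3 in the isoform table. The count was 4 at q under 0.01. It was also 4 over named genes with at least 1 FPKM in sham, a set that leaves Ltbp2 out beforehand. With 6 calls on recomputing, Tgfb2 was the gene added. The median log2 fold change was 0.53 in 5/6Nx and 0.72 in 1/3Nx with a pseudocount of 1, which shrinks low genes by construction, and 0.83 in 5/6Nx after centring. Centring turned Tgfbr2 in 5/6Nx to 0.041. It also moved the median difference between the surgeries to -0.042. Of the 6 pathway calls in 5/6Nx, 0 passed on recomputing. At an unadjusted p under 0.05, 7 transcripts of 1/3Nx passed, against 3 by q. The recomputed pathway calls, the unadjusted transcript counts and the centred difference were chosen after seeing the data. No paired analysis was possible because the labels number each library on its own and the tables hold group values. Leaving out replicates was not run for the same reason. Recomputing kept the deposited p-values and changed only the features over which q was adjusted. Why calls were lost in the isoform table was not tested. Depth per gene is unknown, since FPKM of groups gives no counts, and low genes such as Ltbp2 and Tgfb3 in sham rest on few fragments per kilobase.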
